A study of Caenorhabditis elegans with 4 samples.

Results

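The cytochrome P450 (cyp) genes of Caenorhabditis elegans were followed by the probe sets of the Affymetrix C. elegans GeneChip whose gene symbols are all of the form cyp, a family number and a subfamily letter. This rule used names only and no measured value, although the family was chosen with earlier results of these data known. It took 77 genes, measured by 80 of the 22548 worm probe sets. A ratio between arrays was computed only for the 34 probe sets, of 31 genes, that reached a signal of 100 on any of the 4 arrays, and the other 46 are described by their signals. At that limit, cyp-33E2 (highest signal 100.4) and cyp-33C4 (105) lay just inside, and cyp-33E1 (97.9) and cyp-13B2 (96.9) lay just outside.

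Cytochromes P450 are haem enzymes that insert an oxygen atom into lipids, steroids and foreign compounds. Most sit in the membrane of the endoplasmic reticulum and take their electrons from NADPH through a P450 reductase, and they are known as the first phase of detoxification, in which a compound is made reactive before other enzymes conjugate it. Worm families are grouped by their likeness to vertebrate families. The cyp-14, cyp-33, cyp-34 and cyp-35 families resemble the vertebrate CYP2 enzymes, cyp-13, cyp-25 and cyp-43 resemble CYP3, and cyp-29, cyp-31, cyp-32, cyp-37 and cyp-42 resemble CYP4, whose members act on fatty acids. Many worm P450 genes, cyp-35A members among them, are expressed in the intestine and respond to foreign compounds.

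The arrays measured total RNA of whole adult animals at 1 day of adulthood. The 4 conditions were kgb-1(km21) mutants incubated with 1 mM copper sulfate, kgb-1(km21) mutants incubated with water, wild-type animals incubated with 1 mM copper sulfate and wild-type animals incubated with water, each for 1 h. All were labelled as the N2 Bristol strain and fed OP50 bacteria. KGB-1 is a MAP kinase of the JNK type that confers tolerance to heavy metals, and the arrays asked which transcripts copper changes and which of these changes need KGB-1. Each condition had 1 array, so the mutant was represented by 1 allele and 1 sample per treatment, and in whole animals fewer cells of a type cannot be told apart from less RNA per cell. Below, 4 signals in a row are those of copper-treated kgb-1, untreated kgb-1, copper-treated wild type and untreated wild type, and untreated means incubated with water. A signal is a linear MAS5 intensity, in which each array had been scaled by the authors to a common mean. Signals of different probe sets depend on their probes, so a signal is compared only between arrays and not between genes.

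The number of arrays limits the precision of every ratio. The log2 ratios of 18 hybridization controls, spiked in at fixed amounts, had an SD of 0.18 to 0.22 in the 4 comparisons, which covers technical spread only. The probe set of kgb-1 itself had signals of 229, 179.5, 314 and 129. It was not placed relative to the km21 lesion and therefore checks no label. For the catalase control transcript, probes at the 3' end gave 2.90 and 3.63 times the 5' signal on the kgb-1 arrays, against 4.62 and 4.61 times on the wild-type arrays. The same ratio was 0.912 to 1.08 for Gapdh and 1.70 to 1.85 for actin.

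Of the 80 probe sets, 24 reached 100 on all 4 arrays and 46 stayed below it on every array, with signals of 0.789 to 97.9 and a median of 34.9. On the single arrays, 30 probe sets (37.5%) reached 100 in copper-treated kgb-1, 29 (36.2%) in untreated kgb-1, 31 (38.8%) in copper-treated wild type and 27 (33.8%) in untreated wild type. Over all worm probe sets these shares were 46.8%, 46.6%, 47.1% and 46.2%. Thus the cyp shares lay below those of the whole array in all 4 conditions and varied little between them. The 34 with a ratio were 15 of 43 probe sets of the CYP2 type, 7 of 18 of the CYP3 type, 10 of 15 of the CYP4 type, and those of cyp-36A1 and cyp-44A1. These counts say for which genes a ratio could be formed and, since they depend on the probes, do not compare expression between the families. The 2 probe sets of cyp-23A1 stayed between 8.53 and 29.3.

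**Figure D1:**
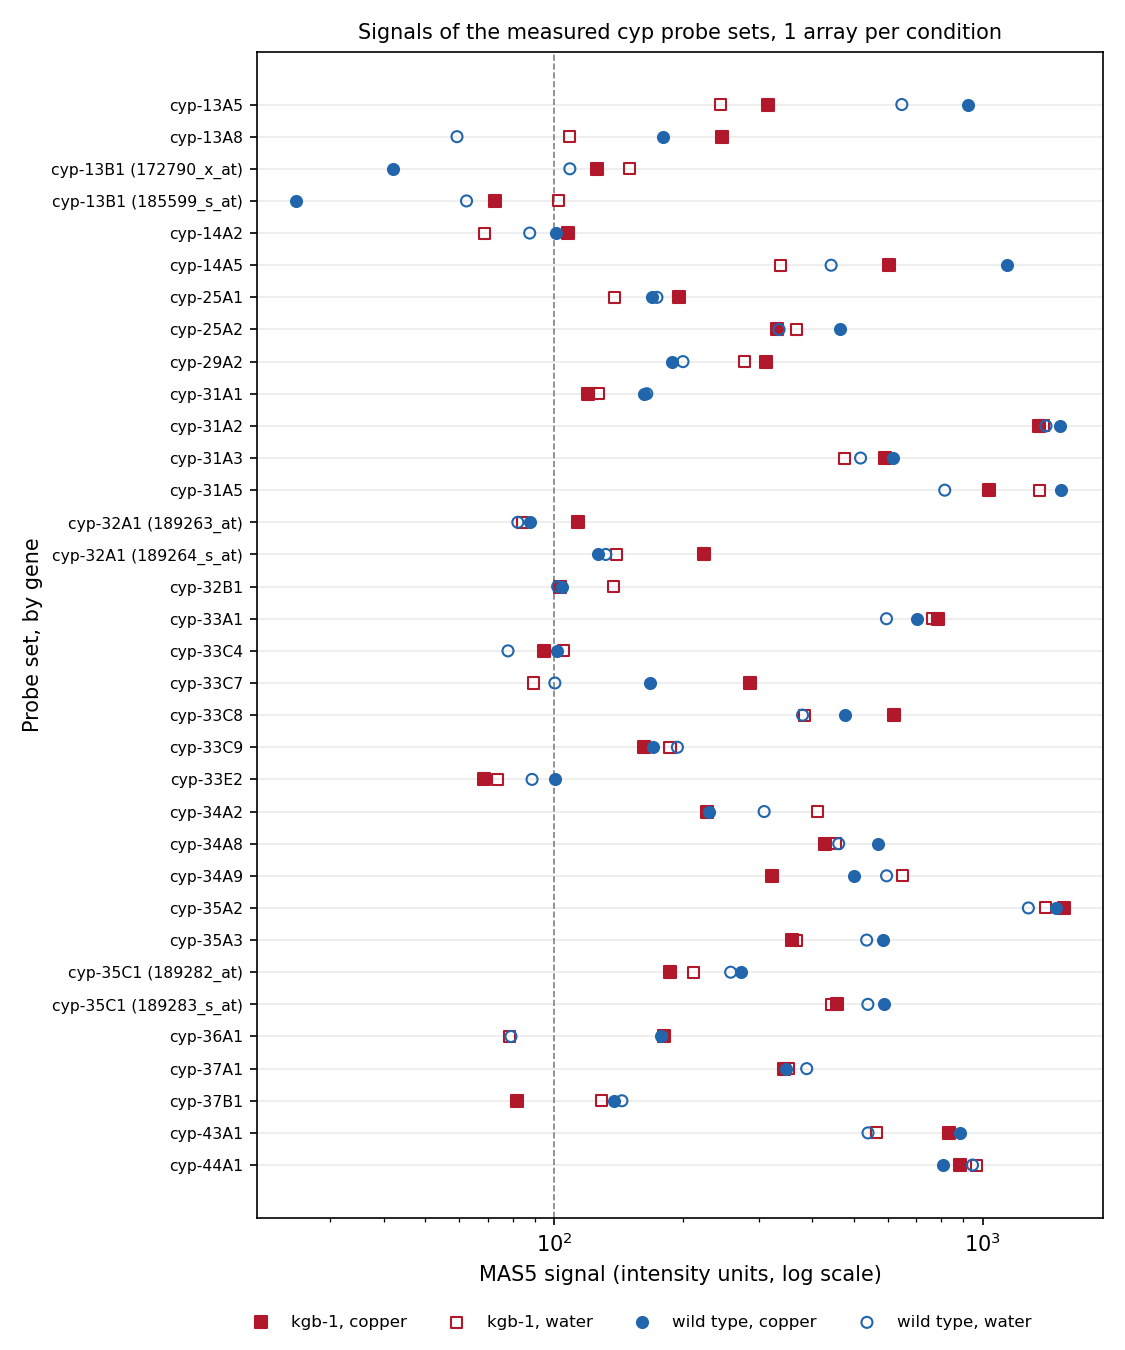
MAS5 signal (linear intensity units on a log axis) of the 34 cyp probe sets that reached 100, 1 row per probe set and 1 point per array. Filled symbols are copper-treated and open symbols untreated samples, squares are kgb-1 mutants and circles wild type, and the dashed line marks 100. The squares and circles of cyp-13A5 are apart, as are the filled and open symbols of cyp-14A5, cyp-13A8 and cyp-36A1.

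The probe sets of 4 genes reached 1000, namely cyp-35A2, cyp-31A2, cyp-31A5 and, described below, cyp-14A5. That of cyp-35A2, a xenobiotic-inducible gene linked to fat storage, had signals of 1548, 1400.1, 1480.2 and 1277. The signals of cyp-31A2, which with cyp-31A3 is required to make the lipid layer of the eggshell, were 1354, 1387, 1513 and 1404. The highest signal was 1.21-fold the lowest for cyp-35A2 and 1.12-fold for cyp-31A2. The other eggshell gene, cyp-31A3, had 591, 475, 616 and 518. The probe set of cyp-31A2 carries a suffix for sequences shared with other transcripts, so its signal may hold RNA of close copies. The pseudogene cyp-31A1 (120, 126, 162 and 164) has such a suffix as well.

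The probe set of cyp-31A5 behaved otherwise. It had signals of 1035, 1358, 1526 and 815, so that copper-treated kgb-1 lay 1.31-fold below untreated kgb-1 and copper-treated wild type lay 1.87-fold above untreated wild type. The difference of the log2 copper ratios, kgb-1 minus wild type, was -1.30, and it could not be tested with 1 array per condition. The signals of cyp-33A1 (787, 764, 703 and 596) and of cyp-44A1 (883, 968, 805 and 946), the worm P450 most like the mitochondrial enzymes of vertebrates, also varied little, with the highest signal 1.32-fold the lowest for cyp-33A1 and 1.20-fold for cyp-44A1.

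The first comparison asked which P450 transcripts differed after 1 h of copper. One gene, cyp-14A5, rose with copper in a fit over both genotypes, and cyp-13A8, cyp-36A1 and cyp-33C7 had the other ratios near or above 2 in both genotypes or in kgb-1 without passing that test. No P450 gene passed that test in the other direction. The fit was made with limma on log2 signals of all 4 arrays and all 11266 probe sets that reached 100, with a term for copper, a term for genotype and p-values adjusted by Benjamini-Hochberg. It has 1 residual degree of freedom, the disagreement of the genotypes about copper. At an adjusted p under 0.05, limma called 1 of the 34 cyp probe sets higher with copper, where 1.18% of all tested probe sets were called, and 0 lower, where 0.346% were called. At an unadjusted p under 0.05, 7 of 34 were higher and 2 lower (6.98% and 5.8% of all tested).

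The cyp-14A5 gene lies alone on chromosome V (5421018 to 5423282, genome build WBcel235), apart from the other cyp-14A genes, and belongs to a subfamily known for induction by foreign compounds. Its signals were 605, 337, 1137 and 443, so that both copper-treated samples lay above both untreated ones. Copper-treated kgb-1 was 1.80-fold above untreated kgb-1, and copper-treated wild type was 2.57-fold above untreated wild type. In the limma fit, copper raised it by 1.10 on the log2 scale (SE 0.16, adjusted p = 0.0303). The call was lost when signals below 100 were raised to 100 (adjusted p = 0.0661), without the variance trend (0.191), and with copper as the only factor (0.282). Since 3 arrays leave no residual with both terms, each array was left out in a fit with copper alone. There it was also not called without the untreated wild-type (0.233), copper-treated wild-type (0.227) or untreated kgb-1 array (0.681), was called without the copper-treated kgb-1 array (0.00668), and changed by 0.65 without the copper-treated wild-type and by 1.56 without the copper-treated kgb-1 array on the log2 scale. Its probe set also carries a suffix for shared sequences, although the gene table names no other gene for it.

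The cyp-13A8 gene, in the tandem group of cyp-13A genes on chromosome II (9805600 to 9807569), had signals of 246, 108, 179.8 and 59.3. Both copper-treated samples lay above both untreated ones, by 2.27-fold in kgb-1 and by at least 1.80-fold in wild type, where the untreated signal was taken as 100. The fitted copper change was 1.39 (SE 0.23, limma adjusted p = 0.0529), and 1.01 with signals below 100 raised to 100 (adjusted p = 0.0662).

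The cyp-36A1 gene, known to act in the oxygen-sensing HIF-1 pathway that controls egg laying, had signals of 180.3, 78.6, 177.5 and 79.2. The genotypes thus had nearly equal signals in either treatment, and copper-treated samples were at least 1.80-fold above untreated ones in kgb-1 and at least 1.78-fold above them in wild type. The probe set reached 100 on the copper-treated arrays only, so it could enter the comparisons only as higher with copper. The fitted change was 1.18 (SE 0.23, limma adjusted p = 0.0877). The cyp-33C7 gene, last in a tandem group of cyp-33C genes on chromosome V, had signals of 287, 89.4, 167 and 100.3. The ratio of copper-treated to untreated samples was at least 2.87 in kgb-1 and 1.67 in wild type, with a fitted change of 1.21 (SE 0.28, limma adjusted p = 0.136).

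In a count of ratios without a test, 3 of 33 probe sets (cyp-33C7, cyp-13A8 and cyp-36A1) were over 2-fold higher in copper-treated than in untreated kgb-1, where 1.51% of all measured probe sets were, and 1 (cyp-34A9) was over 2-fold lower, against 0.753%. In wild type 3 of 32 (cyp-14A5, cyp-13A8 and cyp-36A1) were over 2-fold higher, against 2.11%, and 1 probe set (cyp-13B1) was lower, against 1.08%. A ratio within 1 genotype rests on 2 arrays and has no error of its own. Here cyp-13A8 and cyp-36A1 were counted in both genotypes, by the ratio of the signals as deposited. Since cyp-36A1 reached 100 with copper only, it could be counted only as higher. Within the pair counted, the same held for cyp-33C7 in kgb-1 and for cyp-13A8 in wild type. In wild type, the counted cyp-13B1 probe set reached 100 without copper only, so it could be counted only as lower.

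**Figure D2:**
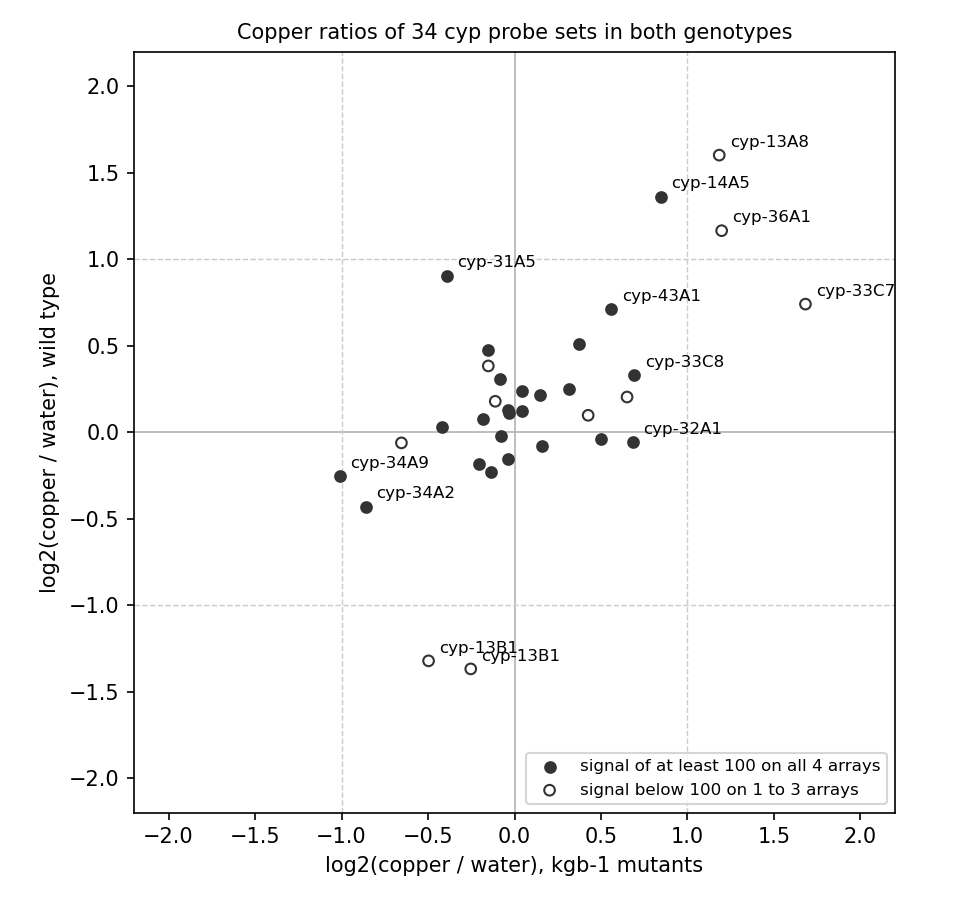
Log2 ratio of copper-treated to untreated signal of the 34 cyp probe sets, in kgb-1 mutants on the horizontal axis and in wild type on the vertical axis, both from 1 pair of arrays. Filled points reached 100 on all 4 arrays, open points did not, and dashed lines mark 2-fold. The points of cyp-13A8, cyp-36A1, cyp-14A5 and cyp-33C7 lie at the upper right, cyp-34A9 and cyp-34A2 at the lower left, and both cyp-13B1 probe sets below 0 in both genotypes.

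Smaller ratios of the same sign in both genotypes were seen for several well-measured genes. The signals of cyp-43A1, a CYP3-type gene, were 833, 565, 883 and 539.6, or 1.48-fold higher with copper in kgb-1 and 1.64-fold higher in wild type (log2 change 0.64, SE 0.12, limma adjusted p = 0.073). Those of cyp-33C8 were 620.4, 384, 476 and 379.5 (0.51, limma adjusted p = 0.208). In the other direction, cyp-34A9 had 323, 649.8, 500.2 and 596, which was 2.01-fold lower with copper in kgb-1 and 1.19-fold lower in wild type (-0.63, limma adjusted p = 0.253). Its relative cyp-34A2, on another stretch of chromosome V, had 227, 412, 229 and 309 (-0.65, limma adjusted p = 0.171). None of these 4 passed the test.

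The 2 probe sets of cyp-13B1, a CYP3-type gene on the X chromosome, had low signals. They were 126, 150.1, 42.1 and 109 for the first, and 72.6, 102, 24.9 and 62.4 for the second. In both, copper-treated wild type was the lowest sample and untreated kgb-1 the highest. With signals below 100 taken as 100, the first was lower with copper by 1.19-fold in kgb-1 and by at least 1.09-fold in wild type. The fitted copper changes were -0.81 and -0.91 (limma adjusted p = 0.42 and 0.486).

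Over the 34 probe sets, both copper-treated samples exceeded both untreated ones in 10, where this held for 19.2% of all tested probe sets, and lay below them in 5, against 20.7%. The 10 were a probe set of cyp-32A1 (113, 84.4, 87.9 and 82.2), cyp-33C7, cyp-14A2, cyp-14A5, cyp-31A3, cyp-43A1, cyp-35A2, cyp-33C8, cyp-13A8 and cyp-36A1. The 5 were cyp-37A1, cyp-34A2, cyp-44A1, cyp-34A9 and cyp-33C9. Of the 10, those of cyp-32A1, cyp-14A2 and cyp-36A1 reached 100 on copper-treated arrays only, so they could not have been counted as lower. The other cyp-32A1 probe set (224, 139.5, 127 and 132) was higher with copper in kgb-1 but not in wild type. The median log2 ratio of copper-treated to untreated signal was -0.04 in kgb-1 (-0.01 over all tested probe sets) and 0.13 in wild type (0.01 over all). The SD of these ratios was 0.58 in kgb-1 and 0.60 in wild type, against 0.40 and 0.45 over all, and among the probe sets that reached 100 on every array it was 0.45 and 0.40, against 0.30 and 0.35. In both genotypes the median thus lay near 0, with members on both sides of it.

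The second comparison asked which P450 transcripts differed between kgb-1 mutants and wild type. One gene, cyp-13A5, fell in the mutants, and none passed the test in the other direction. With limma, 1 of 34 cyp probe sets was lower in kgb-1 at an adjusted p under 0.05, where 0.284% of all tested probe sets were, and 0 were higher, where 0.0533% were. At an unadjusted p under 0.05, 5 were lower and 4 higher (5.25% and 5.52% of all tested). Each strain came from its own culture, and a difference in culture cannot be told apart from genotype in this fit.

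The cyp-13A5 gene, a CYP3-type P450, lies in the middle of the cyp-13A tandem group (chromosome II, 9798277 to 9800362). Its signals were 315.5, 244, 921 and 647, so that both kgb-1 samples lay well below both wild-type samples. The kgb-1 signal was 2.92-fold lower with copper and 2.65-fold lower without it. The fitted genotype change was -1.48 on the log2 scale (SE 0.12, limma adjusted p = 0.0194), and the fitted copper change was 0.44 (limma adjusted p = 0.213). The call was lost when signals below 100 were raised to 100 (adjusted p = 0.0572), without the variance trend (0.191), and with genotype as the only factor (0.17). In that fit with genotype alone it was also not called with any array left out (0.205 without copper-treated kgb-1, 0.383 without untreated kgb-1, 0.373 without copper-treated wild type and 0.108 without untreated wild type). Its log2 change stayed between -1.73 and -1.22 in all alternatives.

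In the count of ratios, cyp-13A5 was the single probe set over 2-fold lower in kgb-1 than in wild type, among 33 measured with copper (1.44% of all measured) and among 30 measured without it (0.934%). With copper, the first probe set of cyp-13B1 was over 2-fold higher in kgb-1 (1.19% of all), but it was at least 1.26-fold higher when the wild-type signal was taken as 100. In that pair it reached 100 in kgb-1 only, so it could be counted only as higher. Without copper, 0 of 30 were over 2-fold higher (0.601% of all). The fitted genotype changes of the 2 cyp-13B1 probe sets were 1.02 and 1.13 (limma adjusted p = 0.391 and 0.462).

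**Figure D3:**
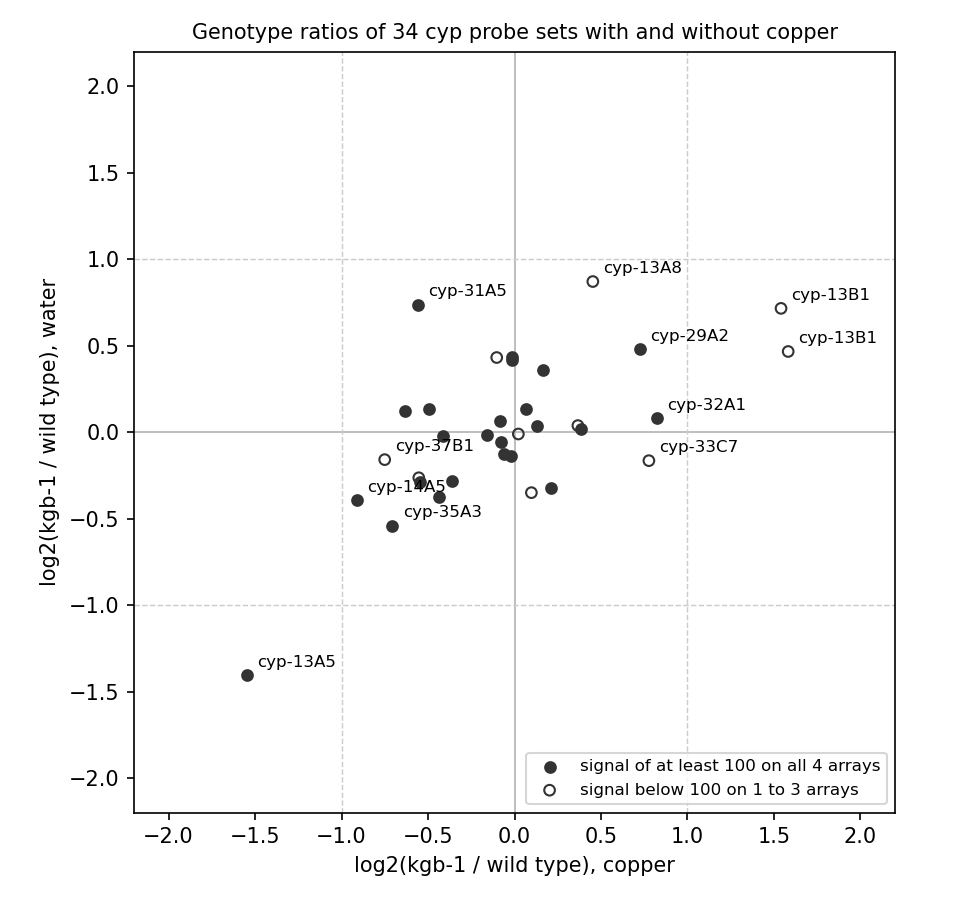
Log2 ratio of kgb-1 to wild-type signal of the 34 cyp probe sets, with copper on the horizontal axis and without copper on the vertical axis, both from 1 pair of arrays. Filled points reached 100 on all 4 arrays, open points did not, and dashed lines mark 2-fold. The point of cyp-13A5 lies at the lower left, past the dashed lines on both axes. Those of cyp-14A5, cyp-35A3 and cyp-37B1 lie toward the lower left within those lines. The points of cyp-13B1, cyp-13A8 and cyp-29A2 lie at the upper right.

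Among genes with smaller differences, cyp-35A3, of the same xenobiotic-inducible subfamily as cyp-35A2, had signals of 359, 368, 586 and 536, or 1.63-fold lower in kgb-1 with copper and 1.46-fold lower without (-0.62, SE 0.13, limma adjusted p = 0.162). Both probe sets of cyp-35C1 ran the same way, with 186, 211, 272 and 258 for the first and 457, 443, 586 and 539 for the second (-0.42 and -0.32, limma adjusted p = 0.44 and 0.424). In contrast, cyp-29A2, a CYP4-type gene, had 311, 278, 189 and 199.6, or 1.65-fold higher in kgb-1 with copper and 1.40-fold higher without (0.60, SE 0.16, limma adjusted p = 0.258). The copper-raised cyp-14A5 was 1.88-fold lower in kgb-1 with copper and 1.31-fold lower without (-0.65, limma adjusted p = 0.219). None of these passed the test.

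Over the 34 probe sets, both kgb-1 samples exceeded both wild-type samples in 5 (18.9% of all tested probe sets) and lay below them in 9 (16.7%). The 5 were the 2 probe sets of cyp-13B1, a probe set of cyp-32A1 (224, 139.5, 127 and 132), and those of cyp-29A2 and cyp-33A1. The other cyp-32A1 probe set (113, 84.4, 87.9 and 82.2) did not separate the genotypes. The 9 were cyp-31A2, cyp-31A1, cyp-37B1, the 2 probe sets of cyp-35C1, cyp-33E2, cyp-35A3, cyp-34A8 and cyp-13A5. The second probe set of cyp-13B1 reached 100 only in untreated kgb-1, and cyp-33E2 only in copper-treated wild type. Each could therefore be counted only on the side where it was. The median log2 ratio of kgb-1 to wild type was -0.04 with copper and 0.00 without it, against -0.00 and 0.01 over all tested probe sets.

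Marker genes of tissues and stages were set beside these values. The summed signals of 6 intestinal probe sets were 5500.3, 5906, 6941 and 6859, with 5 of 6 at 100, and the defining markers ges-1 and elt-2 were detected on every array by at least 1 probe set. Those of 3 sperm probe sets were 3337, 3592, 4386 and 4573, and those of 9 probe sets of molting larvae, 6 of them at 100, were 3836, 3304, 2597 and 2708. Sperm sums were therefore lower, and molting sums higher, in both kgb-1 samples, whereas the yolk genes (105810, 93386, 113470 and 99801) did not separate the genotypes. The intestinal sum was lower in both kgb-1 samples too, and most of that gap lay in act-5, an intestinal actin (3792, 4205, 5098 and 5138). Without it the sums were 1708, 1701, 1843 and 1721, still lower in both kgb-1 samples. Of the intestinal markers, ges-1 (394, 533, 459 and 431) did not separate the genotypes. No single marker probe set passed the limma test for genotype, which 0.284% of all tested probe sets did as lower and 0.0533% as higher. Most of the molting sum lay in noah-1, whose brighter probe set alone had 2114, 1919, 1532 and 1564. The signals of mlt-8 (184, 196, 196 and 186) and of the brighter mlt-10 probe set (124, 58.3, 122 and 85.1) did not separate the genotypes. The dimmer mlt-10 probe set was lower in kgb-1 (14.2, 42.8, 43.2 and 54.7), all below 100. A probe set of mlt-11, a molting gene, was over 2-fold higher in kgb-1 with copper (308, 216, 123 and 204.5). Another mlt-11 probe set (218, 206, 110 and 123) was also higher in both kgb-1 samples. So was a dimmer one (70.3, 82.9, 37.2 and 27.4), all below 100. The dimmest mlt-11 probe set (2.23, 6.05, 3.18 and 4.15) did not separate the genotypes. The part of these differences, and of the catalase ratios, in the cyp values was not tested.

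By position, 47 of the 80 cyp genes annotated in WBcel235 lie in 14 tandem groups, defined as cyp genes with at most 2 other genes between neighbours, and 43 are on chromosome V. Of the annotated genes, 77 have a member probe set, and 6 are pseudogenes. Of the 43 probe sets for genes in tandem groups, 14 reached 100, and of the 37 for genes that lie alone, 20 did. In 9 of the 14 groups some but not every probe set reached 100. In 4 groups none did, and in 1, with cyp-25A1 (195.8, 138, 169 and 173.6) and cyp-25A2 (329.99, 368, 464 and 335), every probe set did. These counts depend on the probes and do not compare expression between neighbours.

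The cyp-13A group (chromosome II, 9779181 to 9807569) holds 9 genes, of which 8 have a probe set. Only cyp-13A5 and cyp-13A8 reached 100. These 2 genes had different genotype patterns, since cyp-13A5 was low in kgb-1 and cyp-13A8 was not. Both had higher signals with copper in each genotype, for cyp-13A5 by 1.29-fold in kgb-1 and 1.42-fold in wild type. Between them lie cyp-13A6 (48.1, 47.3, 47.2 and 45.3), with nearly equal signals on the 4 arrays, and cyp-13A7 (47.1, 27.3, 34.8 and 8.05), known for its induction by rifampicin. In the cyp-34A group (chromosome V, 3955701 to 3972991), 2 of 6 genes reached 100. These are the neighbours cyp-34A8 (427, 454, 570.2 and 461) and cyp-34A9, and the other 4 genes stayed at 65.8 or below.

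**Figure D4:**
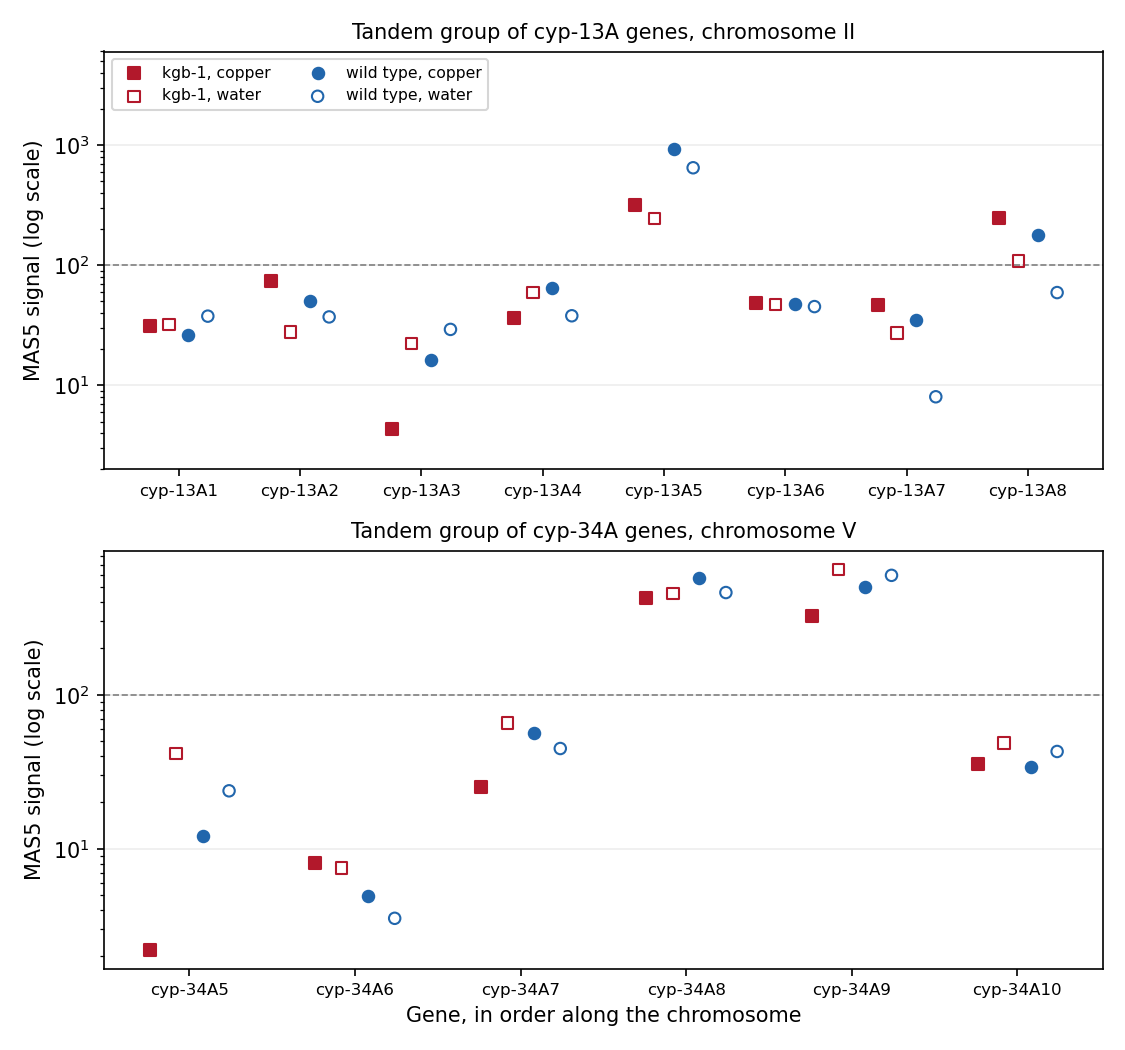
MAS5 signal (log axis) of the genes of the cyp-13A group on chromosome II (upper panel) and the cyp-34A group on chromosome V (lower panel), in their order along the chromosome, 1 point per array with symbols as named in the legend. The dashed line marks 100. In each group 2 genes lie above the line on most or all arrays, cyp-13A5 and cyp-13A8 in the upper and cyp-34A8 and cyp-34A9 in the lower panel.

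Several P450 genes with a known role were dim. The gene of the eicosanoid-forming enzyme cyp-33E2 reached the limit on 1 array alone, with 68.4, 73.9, 100.4 and 88.7 (genotype change -0.41, limma adjusted p = 0.696). The others stayed below 100 on every array. Of these, cyp-29A3, also tied to eicosanoid formation, had 34.1 to 71.1. The probe set shared by cyp-13A12, which shapes the movement response to reoxygenation, and cyp-13A11 had 59.7, 31.3, 32.3 and 29.5. The 2 probe sets of cyp-42A1 lay between 29.4 and 70.8. The signals of cyp-35B1, a gene regulated by the insulin pathway, were 8.97, 46.3, 7.70 and 39.1, with the lower signals in the copper-treated samples, and all were below 100, where no fold is given.

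Partners and regulators of P450 enzymes were listed as well. Of 26 listed genes, 23 were matched to a probe set of their own, with 36 probe sets in all, of which 26 were tested. None of the 26 passed the limma test for copper or genotype in either direction, and 0 were over 2-fold in any of the 4 comparisons. The shares over all probe sets, given above for each of these calls, were at most 2.11%, and a count of 0 in 26 is close to that background. The reductase gene emb-8, which feeds electrons to P450 enzymes, had signals of 420.3, 387, 402 and 313. The cytochrome b5 genes cytb-5.1 (1633, 1775, 1647 and 1682) and cytb-5.2 (3177, 3438, 3808 and 2708) supply electrons too. The haem transporter gene hrg-1 had 1458, 1170.4, 1217 and 929, with both copper-treated samples above the untreated sample of their genotype (0.35, SE 0.11), and daf-9, a P450 gene of steroid hormone synthesis with a name outside the rule, had 90.7, 68.8, 117 and 61.9.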

How the data were processed

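Total RNA of 4 samples, 1 per condition, was hybridized once by a service company, and the authors deposited MAS5 signal intensity values on a linear scale, already scaled per array. The MAS5 version and target scaling settings are not given in the sources used here, and no detection calls were used. Because scaling fixes each array's mean, an intensity is relative to the other RNAs of that array. Of 22625 probe sets, 77 controls were left out of the tests, and 0 columns stayed unmapped. Probe sets were named by the platform's gene table, which lists 21653 of them, and Entrez identifiers were looked up in RefSeq's gene table for WBcel235, where all 77 member identifiers were found. This table gave positions and neighbours, and no sequence was used.

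A 2-fold ratio was one over 2 or under 0.5 with the brighter signal at 100 or more. Where the dimmer signal was below 100, the fold was taken against 100 and written as a lower bound. No array test is stated in the study's methods. For copper and genotype, limma 3.58.1 (R 4.3.3) was fitted to log2 signals with no offset and with a mean-variance trend (prior degrees of freedom 5.19), after a check on simulated data. Python 3.11.15, numpy 2.4.6, pandas 2.3.3 and matplotlib 3.10.9 made counts and plots. No interaction could be tested. Alternatives were another signal minimum (50, 200 or none), quantile normalization, scaling to the same median, an offset of 32, raising signals below 100 to 100, leaving out probe sets with a suffix for shared sequences, no variance trend, the tested factor alone and, in that single-factor fit, each array left out in turn.

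The cyp genes, the list of 26 partners and regulators and the markers were chosen with earlier results of these data known. Named genes were those past 2-fold or past an adjusted p of 0.05, the 10 with the highest mean signal, other probe sets of these genes, and genes with a published function. Other members named were chosen after their values were seen.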

Additional observations from a re-analysis of the deposited data

How the results depend on the processing

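With 1 array per condition, calls on single genes rest on how far the 2 genotypes or treatments agreed, and signal near 100 is close to the dim range of the array. No paired analysis was possible because each group had 1 array, so no replicate block could be formed beyond the fit's own terms, which already compare copper within genotype and genotype within treatment. Each array was left out in a fit with the tested factor alone, so these values change both choices at once. The number of cyp probe sets called higher with copper, 1 as reported, was 3 with a signal minimum of 50 and with array medians made equal (cyp-13A8, adjusted p = 0.0296 and 0.016, and cyp-36A1, 0.0499 and 0.0489, added to cyp-14A5), 2 with 32 added to every signal (cyp-13A8, 0.0411), and 0 with signals below 100 raised to 100, without suffix-bearing probe sets (among them cyp-14A5), without the variance trend and with the tested factor alone. It was 0 to 2 with an array left out of the single-factor fit (cyp-43A1, 0.0457, beside cyp-14A5, 0.00668, without copper-treated kgb-1). The number lower, 0 as reported, was 1 with array medians made equal (cyp-34A2, 0.0443) and 0 to 1 with an array left out of the single-factor fit (cyp-34A9 without copper-treated wild type, 0.0301). Equal medians also moved the split over all probe sets from 133 higher and 39 lower to 182 and 144, and that for genotype from 6 and 32 to 41 and 100. The number lower in kgb-1, 1 as reported, was 0 with signals raised to 100, without the trend, with the tested factor alone, and with any array left out of that single-factor fit. The cause of these shifts was not tested.

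The counts of ratios moved most with the signal minimum. For copper in kgb-1, 3 higher and 1 lower became 3 lower with a minimum of 50, 10 higher and 7 lower with no minimum, and 1 and 0 with 32 added. For copper in wild type, 3 and 1 became 2 lower with a minimum of 50, 1 and 0 with a minimum of 200, 7 and 5 with no minimum, 0 lower with 32 added, 1 and 0 with signals raised to 100, and 0 lower without suffix-bearing probe sets. For kgb-1 over wild type with copper, 1 and 1 became 3 and 2 with a minimum of 50, 8 and 6 with no minimum, and 0 higher with a minimum of 200, with signals raised to 100 and without suffix-bearing probe sets. Without copper, 0 and 1 became 1 higher with a minimum of 50, and 9 and 5 with no minimum. The other 76 counts stayed within 1.5 times. Of single genes' fitted changes, 231 kept direction and side of the threshold, 13 lost and 8 gained the call, and 4 turned sign, all uncalled and with an array left out of the single-factor fit. These were the copper change of cyp-13A5 (-0.33 without copper-treated wild type and -0.26 without untreated kgb-1, within -0.33 to 1.21), the genotype change of cyp-14A5 (0.029 without copper-treated wild type, within -1.33 to 0.029) and that of cyp-13A8 (-0.14 without untreated wild type, within -0.14 to 1.46).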
